A study of Mus musculus with 5 samples.

Results

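The 10 genes described here encode lysosomal proteases and their closest partners in antigen processing: 7 cathepsins (Ctsb, Ctsc, Ctsd, Ctsh, Ctsl, Ctss and Ctsz), the protease legumain (Lgmn), the thiol reductase Ifi30 and the protease inhibitor cystatin C (Cst3). They were taken by gene identity among 27179 genes counted, though with earlier results of these data known. All 10 were found by NCBI gene identifier and all 10 were among the 9988 genes with enough counts to test. Messenger RNA had been profiled in Langerhans cells, the antigen-presenting phagocytes of the epidermis, isolated from skin taken from C57BL/6 mice at an age of 1 week, with 5000 cells per library. The mice were wild type (2 libraries) or Suz12 cKO (3 libraries), a conditional knockout of a core subunit of Polycomb repressive complex 2, which methylates histone H3. The sources used here do not name the Cre line that drives the deletion or any allele that both groups carry. The series calls the cells foetal-derived, and the 5 libraries are called biological replicates. Nothing in the labels says whether each came from 1 mouse or from several, so the p-values rest on the spread from library to library, which may be partly technical.

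A phagocyte that takes up protein delivers it to acidic endosomes and lysosomes, where cathepsins cut it into peptides for MHC class II molecules. The same proteases trim the invariant chain (Cd74) that blocks the peptide groove. Ifi30 reduces disulphide bonds so that folded antigens can be cut, and cystatins bind the active site of cysteine cathepsins and limit their activity. In dendritic cells and other bone marrow-derived antigen-presenting cells Ctss is the protease best known for the last steps of invariant chain removal, a role held by Ctsl in thymic epithelium.

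Upstream sequence from RefSeq (GRCm38.p6, the assembly behind mm10) was available for 8 of the 10 genes, with 9 start sites because Lgmn had 2. The regions of 4 genes are shown, each as the 250 bases before the annotated start, read 5′ to 3′ on the gene's own strand. Cst3 and Ctss are shown as the inhibitor and the protease with the most RNA, and Ctsd and Ifi30 because they share an E-box. Capitals mark TCACGTG, the core of the element bound by the lysosomal regulators TFEB and TFE3, a motif of interferon regulatory factors made of GAAA, any 2 bases and GAAA again, and the GC box GGGCGG, each on either strand.
Cst3 upstream region (chr2:148875513-148875762, minus strand): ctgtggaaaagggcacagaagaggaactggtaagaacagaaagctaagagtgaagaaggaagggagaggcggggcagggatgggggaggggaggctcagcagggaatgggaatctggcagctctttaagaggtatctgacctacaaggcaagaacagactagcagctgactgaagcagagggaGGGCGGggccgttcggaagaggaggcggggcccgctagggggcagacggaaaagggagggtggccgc
Ctss upstream region (chr3:95526536-95526785, plus strand): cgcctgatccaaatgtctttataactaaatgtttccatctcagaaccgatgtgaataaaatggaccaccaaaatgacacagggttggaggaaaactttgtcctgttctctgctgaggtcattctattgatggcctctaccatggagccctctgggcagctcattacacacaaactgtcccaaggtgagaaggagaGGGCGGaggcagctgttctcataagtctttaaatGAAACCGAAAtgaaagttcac
Ctsd upstream region (chr7:142387828-142388077, minus strand): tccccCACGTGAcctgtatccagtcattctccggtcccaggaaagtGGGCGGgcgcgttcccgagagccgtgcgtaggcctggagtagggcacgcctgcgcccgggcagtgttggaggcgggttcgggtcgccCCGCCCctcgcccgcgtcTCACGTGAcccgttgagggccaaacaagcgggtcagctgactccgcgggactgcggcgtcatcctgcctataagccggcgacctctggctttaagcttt
Ifi30 upstream region (chr8:70766664-70766913, minus strand): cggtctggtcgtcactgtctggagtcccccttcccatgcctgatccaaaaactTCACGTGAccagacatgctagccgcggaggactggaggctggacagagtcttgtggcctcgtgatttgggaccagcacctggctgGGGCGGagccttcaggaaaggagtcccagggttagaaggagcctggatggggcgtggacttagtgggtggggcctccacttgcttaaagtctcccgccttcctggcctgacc
TCACGTG was found upstream of Ctsd, of Ifi30 and of the second start of Lgmn, which is 3 of 9 regions, against 3.13% of all 32851 regions in the table. The Lgmn region with the match lies inside the annotated gene, after the first start, whose own region had no match. The region of Ctsl also lies inside its annotated gene, and that of Ctsc overlaps its gene in part. In Ctsd and in Ifi30 the match overlapped its own reverse complement, beginning 99 and 197 bases before the start. Ctsd had another match that began 245 bases before the start. The interferon regulatory factor motif was found only in Ctss among these 9 regions, beginning 21 bases before the start, and in 2.98% of all regions. A GC box was found in 7 of 9 regions and in 32.7% of all regions. The median of the 9 regions held more G and C than 71.1% of all regions, and no adjustment was made for this. Also searched were CACGTG (4 of 9 regions, 6.02% of all) and GAGGAAG (1 of 9, 10.6% of all). CCAAT was found in 2 of 9 and 33.85% of all, and TATAAA in 2 of 9 and 12.4% of all. These matches describe the sequence and do not show that a factor binds.

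The libraries held between 12090062 and 25725900 counts, and 9103 to 10220 genes had at least 1 count. Suz12 (chromosome 11) had 88 and 39 counts in wild type and 0, 0 and 7 counts in cKO, lower in all 3 cKO libraries than in both wild type libraries. Of all tested genes 10.2% lay entirely below wild type in this way. In the test described below Suz12 itself did not pass (log2 fold change -4.11, standard error 2.87, edgeR adjusted p = 0.999). The source label names alveolar macrophages, whereas the titles, tissue and protocol name Langerhans cells of skin. Of 7 alveolar macrophage markers, 4 had no count in any library, Siglecf and Car4 among them. The other 3 had counts: Ear2 lay between 63.8 and 466 CPM and Krt79 between 91.3 and 177 CPM, Marco had 45.7 CPM in wild type replicate 1 and at most 2 counts elsewhere, and the list summed to 162 to 688 CPM. All 13 Langerhans cell markers were detected and tested, with langerin (Cd207) between 6639 and 14597 CPM. CPM is the gene's count scaled to a common effective library size of 1e6 counts. Transcripts of other skin cells were present in all libraries, with keratinocyte markers summing to 268 to 983 CPM and T cell markers to 250 to 769 CPM. Cd3g alone gave 126 to 540 CPM of the T cell sum. Cd3d, Cd3e, Cd2 and Trdc also had counts in every library. Trac had 228 counts in cKO replicate 1 and Lck 303 in cKO replicate 2, each with at most 4 counts elsewhere. In bulk RNA, fewer cells of a type and less RNA per cell cannot be told apart.

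To order the genes by level, CPM was divided by the deposited gene length in kilobases, which gives RPKM. Cst3 was the most abundant of the 10 genes and Ctsl the least. In wild type, Cst3 had a mean of 7914 ± 358 RPKM (SD, n = 2), rank 12 of all genes in the table, and Ctss had 1908 ± 524 RPKM, rank 60. Ifi30 (536 ± 189 RPKM), Ctsz (421 ± 21.9), Ctsc (364 ± 185), Ctsh (320 ± 43.3) and Ctsb (224 ± 26.3) came next. Ctsd (60.5 ± 14.0), Lgmn (41.5 ± 3.95) and Ctsl (14.6 ± 7.26) were lowest. Ctsl, the lowest of these genes, still lay above 65.0% of the tested genes in wild type, and Ctsb above 93.5%.

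**Figure D1:**
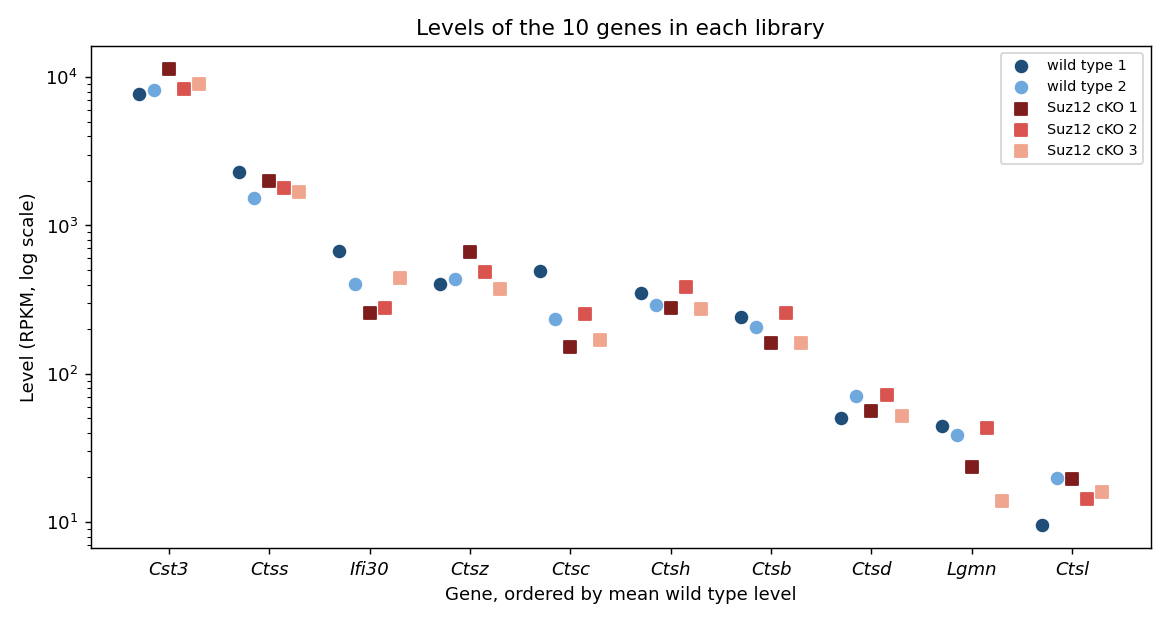
Level of each of the 10 genes in each library, in RPKM on a logarithmic axis, with circles for the 2 wild type and squares for the 3 Suz12 cKO libraries. Cst3 lies at 7661 to 11391 RPKM and Ctss at 1537 to 2278 RPKM in all 5 libraries, and Ctsl lies at 9.51 to 19.8 RPKM.

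The upper end of this order was the same in every library. Cst3 was first and Ctss second in all 5, and the wild type values of each did not overlap those of the gene below it. The middle of the order was not resolved: the wild type values of Ifi30 and Ctsz, of Ctsz and Ctsc, and of Ctsc and Ctsh overlapped. Ifi30 exceeded Ctsz in 2 of 5 libraries. Ctsc had rank 4 of the 10 in wild type replicate 1, rank 6 in wild type replicate 2 and cKO replicate 3, and rank 7 in cKO replicates 1 and 2. Ctsh, Ctsb, Ctsd, Lgmn and Ctsl followed each other without overlap of their wild type values, and the order of Ctsh, Ctsb and Ctsd held in 5 of 5 libraries. In cKO replicate 3 Ctsl, at 15.9 RPKM, lay above Lgmn, at 13.8 RPKM. Levels per length depend on the annotated length, which is 4743 bases for Ctsb and 742 bases for Cst3.

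None of the 10 genes passed the test for a difference between genotypes. The comparison asks whether loss of Suz12 changes the RNA of this protease set. With edgeR's quasi-likelihood test, adjusted over all tested genes, 0 of the 10 passed a threshold of 0.05, where 0% of the 9988 tested genes passed. At an unadjusted p of 0.05 none of the 10 and 415 of all tested genes passed. DESeq2, which called 1.91% of all tested genes after adjustment, called 0 of the 10, and Ctsc had an unadjusted p of 0.0299 there. In the edgeR fit 3 genes lay higher and 7 lower in cKO, and their median log2 fold change was -0.05 against 0.06 over all tested genes. A positive log2 fold change means a higher level in cKO. The groups did not overlap for 1 of the 10 genes, Cst3, with cKO above. Among all tested genes the cKO libraries lay entirely above wild type for 8.87%, entirely below for 10.2%, and on either side for 19%.

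**Figure D2:**
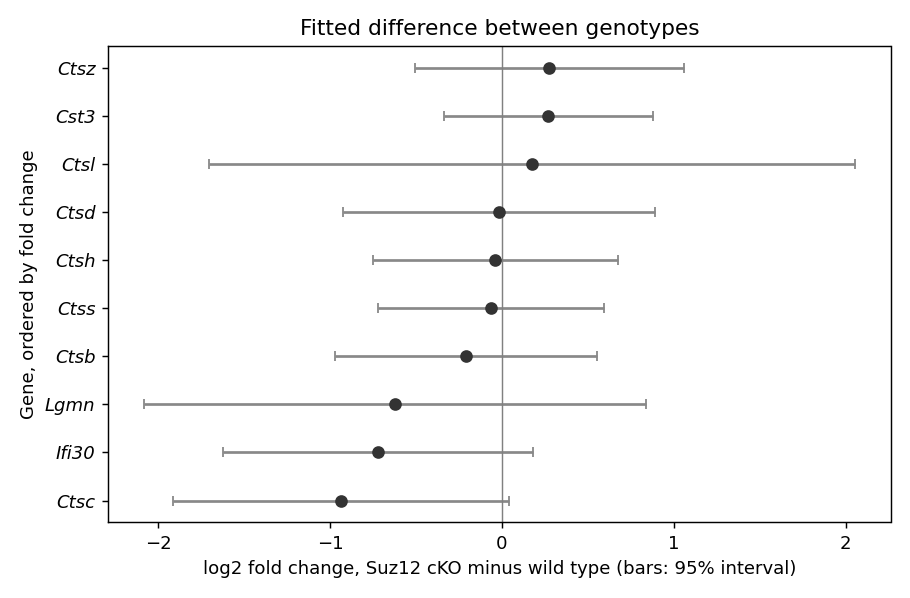
Fitted log2 fold change of each of the 10 genes, Suz12 cKO minus wild type, with its 95% interval between libraries as a bar. Every interval includes 0, from Ctsc (-1.91 to 0.04) to Ctsz (-0.51 to 1.06), and the interval of Ctsl is the widest (-1.70 to 2.05).

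Cst3 encodes cystatin C, a secreted and endosomal inhibitor of cysteine cathepsins (chromosome 2, 148871722 to 148875512, GRCm38). It measured 5685 and 6060 CPM in the 2 wild type libraries, against 8452, 6176 and 6625 CPM in the cKO libraries. Values of libraries are given here and throughout in the order of their replicate numbers. The cKO libraries were all higher, but cKO replicate 2 exceeded wild type replicate 2 by little, and cKO replicate 1 stood above the rest. The log2 fold change was 0.27 (standard error 0.26, edgeR adjusted p = 0.999) and was 0.14 without cKO replicate 1. With upper-quartile scaling the groups overlapped.

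Per length, Cst3 RNA exceeded the summed RNA of the 6 cysteine cathepsins (Ctsb, Ctsc, Ctsh, Ctsl, Ctss and Ctsz) in every library. This depends on the annotated lengths and does not hold in every library for CPM. Nor does a ratio of RNA give the balance of the proteins. The ratio of the RPKM values was 2.03 and 3.00 in wild type, and 3.48, 2.61 and 3.33 in cKO. The range of the cKO libraries included the value of wild type replicate 2, so the groups overlapped. The summed RPKM of the 6 cathepsins was 3782 and 2722 in wild type and 3269, 3190 and 2682 in cKO.

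Ctss encodes cathepsin S, a cysteine endopeptidase that keeps its activity at neutral pH (chromosome 3, 95526786 to 95556405). It measured 3087 and 2083 CPM in the 2 wild type libraries, against 2703, 2428 and 2287 CPM in the cKO libraries. All 3 cKO libraries fell between the 2 wild type libraries. The log2 fold change was -0.06 with a 95% interval of -0.72 to 0.60, and leaving out wild type replicate 1 or 2 gave 0.25 or -0.32. Ctss made up 60.2% and 56.5% of the summed RPKM of the cysteine cathepsins in wild type and 61.0%, 56.2% and 62.9% in cKO.

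Ctsl encodes cathepsin L, the related endopeptidase (chromosome 13, 64361890 to 64370772). It had only 354 to 792 counts per library, which are 18.7 and 39.0 CPM in the 2 wild type libraries, against 38.3, 28.0 and 31.4 CPM in the cKO libraries. The 2 wild type libraries were the lowest and the highest of the 5. The log2 fold change of 0.18 had the largest standard error of the 10, 0.79, and it turned to -0.25 without wild type replicate 1. Per length, Ctss exceeded Ctsl by 240-fold and 77.7-fold in wild type and by 103-fold, 126-fold and 106-fold in cKO.

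Ctsc encodes cathepsin C, which removes dipeptides from amino termini and activates serine proteases of immune cell granules (chromosome 7, 88278024 to 88315861). It had the smallest p of the 10 genes. Its level was 1224 and 577 CPM in the 2 wild type libraries, against 375, 621 and 416 CPM in the cKO libraries. Wild type replicate 1 stood far above the other 4 libraries, and wild type replicate 2 lay below cKO replicate 2. The mean of cKO was 0.522 times that of wild type, which is -0.94 on the log2 scale (standard error 0.41, 95% interval -1.91 to 0.04), and did not pass (edgeR adjusted p = 0.968, range 0.398 to 1 over 17 alternatives). Leaving out wild type replicate 1 gave -0.29, and leaving out replicate 2 gave -1.37. The ratio of Ctsc to Ctss RPKM, a quantity chosen after its values were seen and not tested, was 0.217 and 0.152 in wild type. It was 0.076, 0.140 and 0.0997 in cKO, so that the groups did not overlap, though neither gene separated them alone. Single genes separated the groups in 19% of all tested genes. The share among other ratios was not computed, and nothing is concluded from this one.

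Ifi30 encodes the gamma-interferon-inducible lysosomal thiol reductase (chromosome 8, 70762773 to 70766663). It measured 658 and 395 CPM in the 2 wild type libraries, against 254, 272 and 432 CPM in the cKO libraries. Again wild type replicate 1 was highest, and cKO replicate 3 lay above wild type replicate 2. The log2 fold change was -0.72 (standard error 0.38, edgeR adjusted p = 0.995), and -0.30 without wild type replicate 1.

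Lyz2 and the summed markers of dermal macrophages were likewise highest in wild type replicate 1 and lower in all cKO libraries than in both wild type libraries, but the macrophage markers differed among themselves. The macrophage list of 13 genes reached a sum of 956 and 693 CPM in the wild type libraries, against 292, 649 and 465 CPM in those of cKO. Of its genes 8 were tested, and 3 had no count in any library (Folr2, Lyve1 and Mertk). Ms4a7 measured 128 and 102 CPM in the 2 wild type libraries, against 0.375, 9.59 and 0.258 CPM in the cKO libraries. Timd4 went the other way, at 7.57 and 1.95 CPM against 81.0, 3.96 and 44.6 CPM. C1qa and Cd163 were highest in cKO replicate 2 (274 and 22.2 CPM) and Pf4 in wild type replicate 2 (56.9 CPM). C1qb, a complement gene, measured 185 and 117 CPM in the 2 wild type libraries, against 53.4, 106 and 63.0 CPM in the cKO libraries. Lyz2 measured 2101 and 1081 CPM in the 2 wild type libraries, against 528, 640 and 500 CPM in the cKO libraries, nearly all of the sum of the 6 monocyte markers (1085 to 2103 CPM in wild type, 500 to 656 CPM in cKO). Plac8, another of these markers, had no count in any library. The part of these markers in the values of Ctsc and Ifi30 was not tested.

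The sample titles are written in 2 styles, which the labels do not call a batch. Among the libraries titled LC, Ctsc lay at 1224 CPM in wild type replicate 1 against 375 and 621 CPM in cKO replicates 1 and 2. Among those titled Langerhans-cell, it lay at 577 CPM in wild type replicate 2 against 416 CPM in cKO replicate 3. Ctsc was thus lower in cKO within both styles, whereas Ifi30 was lower within the first and slightly higher within the second, 432 against 395 CPM. With the style as a term the log2 fold changes were -0.95 for Ctsc and -0.73 for Ifi30, and neither passed (edgeR adjusted p = 1 for both).

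**Figure D3:**
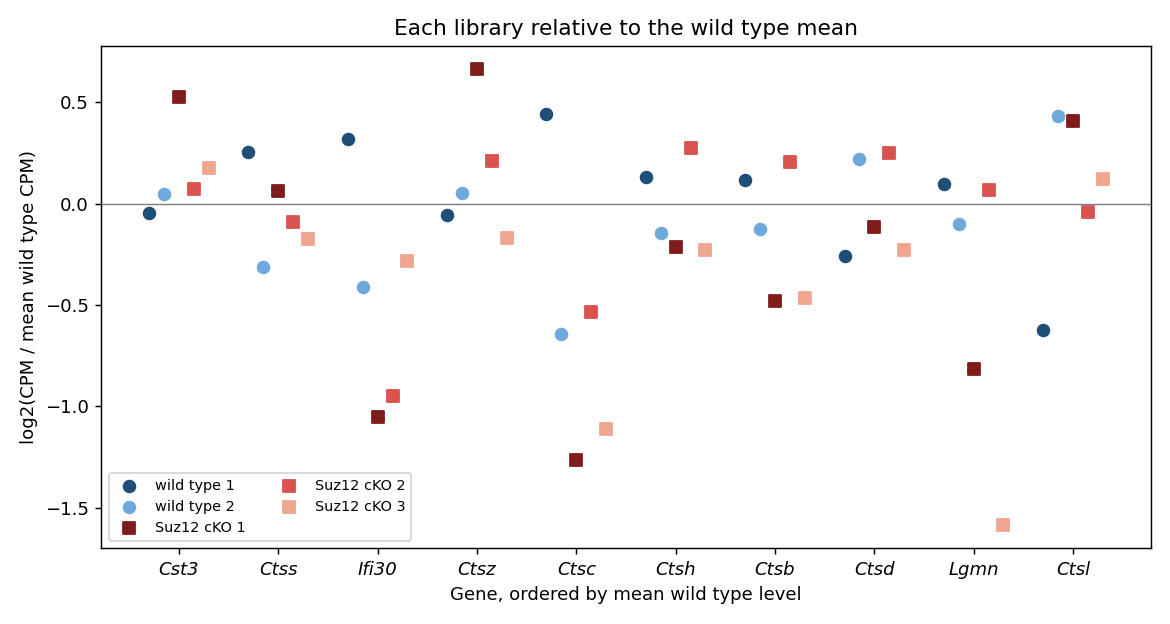
CPM of each gene in each library relative to the mean of the 2 wild type libraries, on a log2 scale, with circles for wild type and squares for Suz12 cKO. Wild type replicate 1 lies highest for Ctss, Ifi30, Ctsc and Lgmn and lowest for Cst3, Ctsd and Ctsl, and cKO replicate 3 lies lowest for Lgmn.

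Lgmn encodes legumain, a protease that cuts after asparagine and processes several cathepsins (chromosome 12, 102394082 to 102439728). It measured 82.9 and 72.5 CPM in the 2 wild type libraries, against 44.0, 81.4 and 25.8 CPM in the cKO libraries. The value of cKO replicate 2 lay between those of the 2 wild type libraries, and in cKO replicate 3 it was 3.15-fold lower than in cKO replicate 2. The log2 fold change of -0.62 (standard error 0.61, edgeR adjusted p = 0.999) became -1.15 without cKO replicate 2 and -0.29 without cKO replicate 3.

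Ctsz encodes cathepsin Z, a carboxypeptidase (chromosome 2, 174427494 to 174439039). It measured 565 and 608 CPM in the 2 wild type libraries, against 930, 678 and 521 CPM in the cKO libraries, so that cKO held both the highest and the lowest library. The log2 fold change was 0.28 (standard error 0.33), and 0.05 without cKO replicate 1. The annotated Ctsz gene overlaps Nelfcd, which had 167 to 1114 counts per library against at least 6069 for Ctsz. The sources used here do not say how reads of the overlap were assigned.

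For Ctsh, Ctsb and Ctsd the difference between genotypes was smaller than its standard error. Ctsh, an aminopeptidase (chromosome 9, 90054267 to 90076095), measured 569 and 470 CPM in the 2 wild type libraries, against 447, 628 and 444 CPM in the cKO libraries. Ctsb, with both endopeptidase and carboxypeptidase activity (chromosome 14, 63122462 to 63145923), measured 1153 and 976 CPM in the 2 wild type libraries, against 762, 1229 and 770 CPM in the cKO libraries. In both genes cKO replicate 2 was the highest library and the other 2 cKO libraries lay below wild type. Ctsb overlaps Fdft1 in the annotation, which had 9 to 865 counts per library against at least 8971 for Ctsb.

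Ctsd encodes cathepsin D, the aspartic protease of the set and no target of cystatin C (chromosome 7, 142375910 to 142387827). It measured 98.8 and 137 CPM in the 2 wild type libraries, against 109, 140 and 101 CPM in the cKO libraries, with cKO replicate 2 slightly above the range of wild type and the other 2 inside it. The log2 fold changes were -0.04 for Ctsh, -0.21 for Ctsb and -0.02 for Ctsd, with standard errors of 0.30, 0.32 and 0.38. Their 95% intervals were -0.75 to 0.67, -0.97 to 0.55 and -0.92 to 0.89, and each includes 0.

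Together the 10 genes took 1.33% and 1.14% of all counts in wild type and 1.30%, 1.35% and 1.12% in cKO. The spread among libraries differed by gene. The highest library exceeded the lowest by 1.42-fold for Ctsh and Ctsd, 1.48-fold for Ctss, 1.49-fold for Cst3, 1.61-fold for Ctsb and 1.78-fold for Ctsz. For Ctsl it was 2.08-fold, for Ifi30 2.59-fold, for Lgmn 3.21-fold and for Ctsc 3.27-fold. Between the 2 wild type libraries alone Ctsc differed by 2.12-fold and Ctsl by 2.08-fold, and Cst3 by 1.07-fold.

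The genes whose pattern over the 5 libraries was most like that of Cst3 were H2-Eb1, Gsto1 and Ddx5. Likeness was the root mean square difference of log2(CPM + 1) values centred on the gene's mean, over 1585 tested genes of at least 100 CPM, and it was 0.07, 0.08 and 0.08 for these genes. H2-Eb1, an MHC class II beta chain, measured 13863 and 13490 CPM in the 2 wild type libraries, against 18209, 14616 and 15972 CPM in the cKO libraries. Like Cst3, it was highest in cKO replicate 1. Among the genes most like Ctsc were Cct5 and C1qb, at 0.16 and 0.18. Cct5, a subunit of a cytosolic chaperonin, measured 525 and 304 CPM in the 2 wild type libraries, against 212, 267 and 208 CPM in the cKO libraries.

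Other genes of antigen processing were taken from 6 lists, and none of their genes passed the test (0% of all tested genes did). Of 13 further lysosomal peptidases 10 were tested, 3 higher and 7 lower, and the median was -0.05 on the log2 scale. Napsa, an aspartic protease, had the highest level of these per length (457 RPKM in wild type) and had a mean of 676 ± 36.9 CPM (SD, n = 2) in wild type, against 806 ± 208 CPM (SD, n = 3) in cKO. Dpp7, a dipeptidyl peptidase, measured 44.6 and 71.3 CPM in the 2 wild type libraries, against 0, 8.39 and 16.9 CPM in the cKO libraries (log2 fold change -2.78, standard error 1.86). Ctsf, a further cysteine cathepsin, had a mean of 61.9 ± 23.4 CPM in wild type, against 35.9 ± 24.4 CPM in cKO. Higher in cKO were 6 of 11 genes tested without wild type replicate 1, and 6 of 10 without cKO replicate 1. The 11 included Ctsk, which had counts in wild type replicate 2 alone and could only lie lower.

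Of 10 other cystatins and stefins, which like Cst3 inhibit cysteine proteases, 5 were tested and none passed. Cst7 had entered the test through its cKO counts alone, which fixed its direction. The other 4 (Cst6, Cstb, Stfa1 and Stfa3) lay higher in cKO, with a median log2 fold change of 1.77. With a library left out the number tested ran from 4 to 7, and these 4 lay higher in each case. More genes entered where a wild type library was left out. Like Cst7 they had at most 1 count in any wild type library, so they could only lie higher. Cst6, an epidermal cystatin, measured 124 and 130 CPM in the 2 wild type libraries, against 1149, 141 and 479 CPM in the cKO libraries. The cKO libraries thus differed from each other by far more than the wild type libraries, and cKO replicate 2 was close to wild type (log2 fold change 2.21, standard error 0.83, edgeR adjusted p = 0.968, and 1.29 without cKO replicate 1). Cstb, a cytosolic inhibitor with the highest level of this list (1000 RPKM in wild type), measured 604 and 599 CPM in the 2 wild type libraries, against 1527, 402 and 870 CPM in the cKO libraries. Stfa3, a stefin A gene, measured 10.6 and 41.4 CPM in the 2 wild type libraries, against 75.0, 37.2 and 219 CPM in the cKO libraries, and its reads can be shared with other stefin genes of the same cluster. Cst7, counted in neither wild type library nor in cKO replicate 3, reached 18.2 CPM in cKO replicate 1 and 7.61 CPM in cKO replicate 2. No fold is given for Cst7, because a floor of 3 counts covers counting error and not the spread between libraries. Keratinocytes also express stefins and Cst6. The 12 keratinocyte markers, 10 of them tested and none without a count, had a sum of 268 and 604 CPM in the wild type libraries, against 606, 983 and 823 CPM in those of cKO, and their part in the cystatin values was not tested.

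The MHC class II genes, whose products receive the peptides, included the most abundant tested gene of all, H2-Ab1 (31242 RPKM in wild type). All 11 were tested, 8 higher and 3 lower, with a median of 0.07. H2-Ab1 had a mean of 37271 ± 3812 CPM in wild type, against 34820 ± 1486 CPM in cKO. H2-Oa, a chain of the inhibitor of peptide loading, measured 20.0 and 46.3 CPM in the 2 wild type libraries, against 123, 42.7 and 68.7 CPM in the cKO libraries. Ciita, the transcriptional activator of the class II genes, measured 14.9 and 38.1 CPM in the 2 wild type libraries, against 0, 7.04 and 7.38 CPM in the cKO libraries (log2 fold change -2.46, standard error 2.28).

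Of 10 genes that deliver proteases to lysosomes or control lysosomal genes 8 were tested. Apart from Sort1, a sorting receptor that entered through its cKO counts alone and had at most 7.45 CPM, 2 lay higher and 5 lower (median -0.14). Sort1 included where tested, the number higher ran from 1 of 7 without cKO replicate 2 to 6 of 9 without wild type replicate 1. Mitf, with no count in wild type, was among the 9 and could only lie higher. Psap, which encodes the precursor of the saposins, was the most abundant per length and measured 547 and 272 CPM in the 2 wild type libraries, against 152, 586 and 186 CPM in the cKO libraries. Tfe3, a transcription factor of lysosomal genes, measured 0 and 10.6 CPM in the 2 wild type libraries, against 32.0, 56.9 and 25.1 CPM in the cKO libraries.

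Of the 8 cytosolic and endoplasmic reticulum peptidases, which act on the class I route, 5 were higher and 3 lower (median 0.36), and without cKO replicate 2 only 3 lay higher. Tpp2, a large cytosolic peptidase, measured 8.84 and 28.2 CPM in the 2 wild type libraries, against 41.4, 38.0 and 64.8 CPM in the cKO libraries. Nrdc, listed under its older symbol Nrd1, had a mean of 75.7 ± 22.6 CPM in wild type, against 48.2 ± 18.4 CPM in cKO. Blmh, the most abundant per length (18.5 RPKM in wild type), had 43.6 ± 25.1 CPM in wild type, against 39.0 ± 7.25 CPM in cKO.

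Of 16 genes of the lysosomal membrane and its proton pump 15 were tested, 11 higher and 4 lower, with a median of 0.39. Cd68, a lysosomal glycoprotein of phagocytes, differed by -1.10 on the log2 scale (standard error 0.32, edgeR adjusted p = 0.968), and Atp6ap2, an accessory subunit of the pump, by 1.08 (standard error 0.39, edgeR adjusted p = 0.968). Cd68 measured 686 and 584 CPM in the 2 wild type libraries, against 227, 280 and 380 CPM in the cKO libraries, all below wild type. Atp6ap2 measured 205 and 195 CPM in the 2 wild type libraries, against 604, 352 and 311 CPM in the cKO libraries. Cd63, the most abundant per length (647 RPKM in wild type), had a mean of 671 ± 173 CPM in wild type, against 648 ± 242 CPM in cKO.

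**Figure D4:**
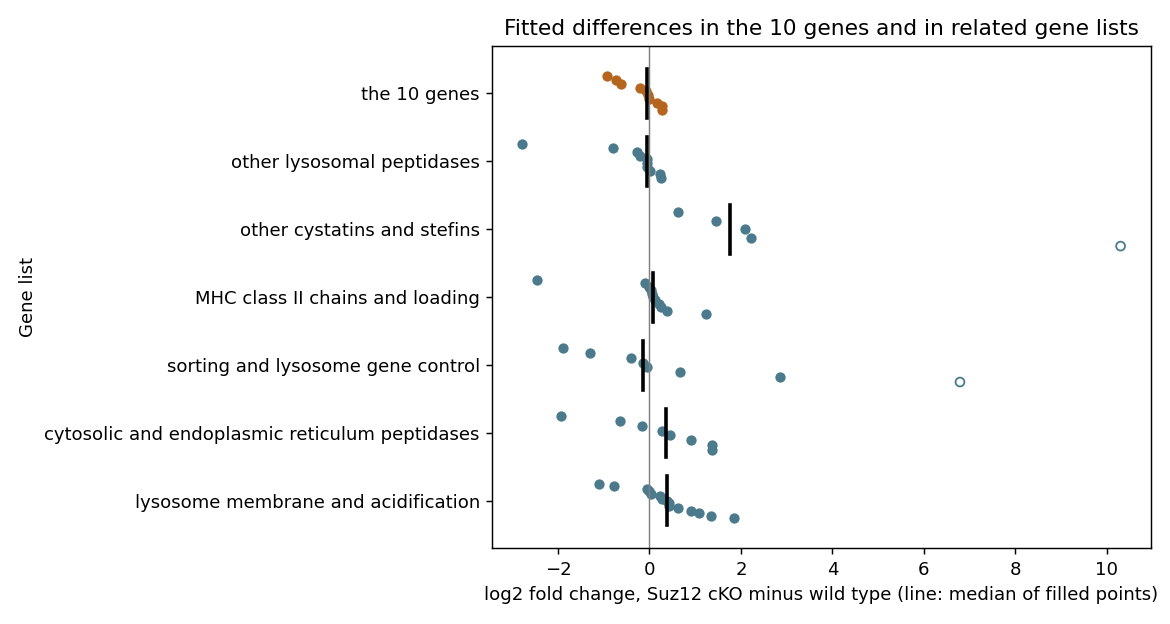
Fitted log2 fold changes, Suz12 cKO minus wild type, of the 10 genes and of the tested genes of 6 related lists, with 1 point per gene open where a gene entered the test through 1 group alone (Cst7 and Sort1), and a line at the median of the filled points. The medians run from -0.14 for sorting and lysosome gene control to 1.77 for 4 cystatins and stefins, and the open point at 10.30 is Cst7, a fitted value against a wild type group at 0 and not a measured fold.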

How the data were processed

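RNA was taken from 5000 purified cells per library and copied into cDNA from its poly(A) tails by a kit for very small inputs and sequenced as 75 bp paired ends, per the labels. The authors deposited raw counts per gene and the gene length, in a table of the series and in 5 files that each hold a single sample. The counts of the files and of the table were identical. featureCounts and mm10 are named in the submitters' processing notes. The sources used here do not state the aligner, the strand setting or what was done with multi-mapping reads.

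Symbols came from RefSeq (GRCm38.p6) for 25275 of 27179 identifiers. Libraries were grouped by their titles. edgeR 4.0.16 in R 4.3.3 was used with filterByExpr (minimum count 10), TMM factors, robust quasi-likelihood F tests and Benjamini-Hochberg adjustment over all 9988 tested genes at 0.05. CPM and RPKM were computed with the TMM effective library sizes. Intervals of log2 fold changes (95%) are the estimate plus and minus its standard error times the t quantile of the fit. Counting floors are 3 counts, 0.106 to 0.258 CPM per library, and cover counting error only. The members and lists were chosen with earlier results of these data known. Named genes were all members, Suz12, a few markers, genes from the 3 most like each of 2 members, and genes of each list. In each list these were the 2 with the smallest p and the most abundant per length. The markers of dermal and alveolar macrophages and of T cells, and Krtdap and Trp63, were chosen after their values were seen. Cst7, Lyz2, Nelfcd and Fdft1 were also added after their values were seen. Some genes that this rule or the marker lists take are not reported here. Alternatives were RLE factors, upper-quartile factors, a minimum count of 50, no filter on counts, a mean of at least 50 CPM, DESeq2 1.42.0, limma-voom (limma 3.58.1), other edgeR settings, a replicate block, the title style as a term, each library left out, and the files per sample. For the lists, each library left out was added after seeing the data. The fit was run on simulated counts with known changes, a check of the code and not of what it could detect in these libraries. Figures were drawn with matplotlib 3.10.9.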

Additional observations from a re-analysis of the deposited data

How the results depend on the processing

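None of the 10 genes passed under any of the 17 alternatives (adjusted p from 0.398 to 1). Ctsc had an unadjusted p of 0.0576 as reported (edgeR). It was below 0.05 with DESeq2 (0.0299), limma-voom (0.0297), no filter (0.0288), no legacy setting of edgeR (0.0349) and without cKO replicate 2 (0.0387). It was higher with the replicate block (0.244), without cKO replicate 1 (0.171) and without cKO replicate 3 (0.161). The other alternatives that kept both wild type libraries gave 0.0508 to 0.0617. Dropping wild type replicate 1 moved the log2 fold change of Ctsc to -0.29, and dropping replicate 2 moved it to -1.37. Of 169 values 155 kept their direction, 14 did not, the latter from Ctsd, Ctsh, Ctss and Ctsl. The files per sample held identical counts, so their values among the 155 were bound to be the same. Leaving out 1 library at a time gave -0.32 to 0.25 for Ctss, -0.22 to 0.11 for Ctsh, -0.23 to 0.25 for Ctsd and -0.25 to 0.80 for Ctsl. Restricted to genes averaging 50 CPM or more, which leaves out Ctsl, Ctsd was at 0.0458 and Ctsh at 0.0188, and without the legacy setting of edgeR Ctsd was at 0.0182. Genes called over the whole table numbered 0 in the edgeR fit (415 at an unadjusted p of 0.05), 191 with DESeq2 (137 higher and 54 lower) and 3 among genes averaging 50 CPM or more. Apart from these 2 alternatives and the replicate block, no alternative called any gene. In those the absence of the 10 genes says nothing particular to them. The count of the 10 genes with separate groups was 1, and 0 with upper-quartile factors. It was 1 to 6 with a library left out, where fewer libraries make separation easier. The share of all tested genes with separate groups, 19% with all 5 libraries, is not given for the fits with a library left out. The counts of 1 to 6 therefore cannot be set against all tested genes, and nothing is concluded from them.

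Replicate numbers 1 and 2 occur in both groups, but nothing in the labels says that they pair animals, and same-numbered libraries did not deviate together (Pearson's r of -0.027 and -0.025 across 9988 genes). With a replicate block, in which cKO replicate 3 adds nothing to the difference, 1 gene was called over the table and 0 of the 10, and Ctsd, Ctsh and Ctss were at 0.0865, 0.0355 and 0.0147. Each of the 10 genes had at least 301 counts in every library. The counts are amplified reads and not molecules, and how far sampling of molecules limits these comparisons was not tested.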
